A study of Mus musculus with 186 samples.

Results

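The genes described here are 6 metabotropic glutamate receptor genes of the mouse: Grm5 of receptor group I, Grm2 and Grm3 of group II, and Grm4, Grm7 and Grm8 of group III. They were taken by name from the table of estimated counts, where all 6 were found among 28338 gene symbols. The study measured bulk RNA from brains of Akap11 mutant mice in 186 libraries, dissected in a cryostat from frozen tissue of 2 cortical areas, the prefrontal (PFC) and the somatosensory (SSC), and of the striatum (STR), hippocampus (HP), substantia nigra (SN) and thalamus (TH). Each region was sampled at 4 and 12 weeks of age from wild-type mice (WT), heterozygotes (HET, Akap11 +/-) and homozygous mutants (KO, Akap11 -/-), which made 36 groups, 30 of them with 5 libraries and 6 with 6. The labels name no allele, strain, sex, drug or further treatment for any group, and they do not say whether libraries of a group came from separate animals. The p-values below therefore measure the spread between these libraries.

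Metabotropic glutamate receptors are G protein-coupled receptors that adjust the release of transmitter and the excitability of neurons. Group I receptors act mainly through Gq, phospholipase C and calcium release, and mGlu5, the product of Grm5, sits mostly beside the postsynaptic density, tied to it through Homer and Shank proteins. Group II and group III receptors act mainly through Gi and Go, inhibit adenylyl cyclase and so lower cyclic AMP, the activator of protein kinase A; many sit on axon terminals, while mGlu3 is also found in astrocytes. Akap11 encodes an anchoring protein for protein kinase A, which the series' title names as raised in activity at synapses of these mice.

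The 6 genes lie apart in the genome, so that their levels can be read one gene at a time. In GRCm38 coordinates, with the gene models of GENCODE release M21, Grm5 lay on the plus strand at chr7:87584168-88134907, Grm2 on the minus strand at chr9:106643095-106656082 and Grm3 on the minus strand at chr5:9485541-9725170. Grm4 lay on the minus strand at chr17:27422387-27521403, Grm7 on the plus strand at chr6:110645581-111567230 and Grm8 on the minus strand at chr6:27275119-28135178. An annotated gene on the opposite strand, Gm28111, overlapped 470 exon bases of Grm2 (9.60% of its exon bases), and Gm20387 overlapped 130 exon bases of Grm7 (2.21%). The library kit keeps the strand, but no source used here says whether the counting used it, so reads of these partners cannot be told apart from those of Grm2 and Grm7 over those bases.

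Members of one family can also share sequence, so the annotated coding sequences were compared base by base. In the 15 pairs of genes the longest identical run was between 12 and 27 bases, and no pair shared a run of 31 bases.

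Library totals ran from 20.8 M to 73.3 M estimated counts, with a mean of 46.1 M ± 9.60 M (SD, n = 186). Akap11 itself stood at 5.08% to 7.98% of WT in the KO groups and at 50.2% to 61.8% of WT in the HET groups of the 12 combinations of region and age. With edgeR's quasi-likelihood test KO passed in all 12 and HET in 10. The exceptions for HET were the 4-week hippocampus (adjusted p = 0.273) and substantia nigra (adjusted p = 0.548). In the latter the lowest WT library held 43.6 CPM of Akap11, below all HET libraries there (96.5 to 137.6 CPM). Neuron markers matched the dissected regions in most libraries: the score of the striatal projection neuron list (mean log2(CPM + 1)) was at least 9.08 in the 30 striatal libraries and at most 7.27 elsewhere, and the dopamine neuron score was at least 2.70 in the 32 nigral libraries and at most 2.28 elsewhere. The thalamic neuron score was at least 8.04 in the 31 thalamic libraries, while 1 nigral library reached 8.25. At 4 weeks, 11 libraries stood apart from their region in such scores. These were 1 WT and 3 KO libraries of the striatum with cortical excitatory neuron scores of 5.28 to 6.19 (at most 3.72 in the other striatal libraries), 3 WT libraries of the thalamus with thalamic scores of 8.04 to 8.29, and 2 WT and 2 KO libraries of the substantia nigra with dopamine neuron scores of 2.70 to 4.28. Results that rest on these libraries are given with and without them. In bulk RNA, fewer cells of a type and less RNA per cell cannot be told apart.

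Levels are given as CPM, a gene's counts scaled to the effective size of its library on 1 scale for all libraries, and regions were compared among WT libraries with edgeR's quasi-likelihood test. Of 180 tests (6 genes, 15 pairs of regions, 2 ages), 133 passed an adjusted p of 0.05, and 115 had ranges that did not overlap. Libraries of different regions share sample numbers, and the labels do not say whether a number is 1 animal. Over all genes tested, 53.4% of such tests passed and 40.3% had no overlap (45.6% passed at 4 weeks and 61.1% at 12), so regional differences were common in the transcriptome as a whole. Grm2 had the widest span of the 6: at 12 weeks its highest and lowest region means were 5.59 apart as log2(CPM + 1), a scale that understates the span of low levels, more than in 98.9% of 12614 genes, whose median was 0.85. Grm4 spanned 3.78, Grm5 2.99 and Grm8 2.79, and Grm3 and Grm7 were the most even, with 1.48 and 1.30.

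**Figure D1:**
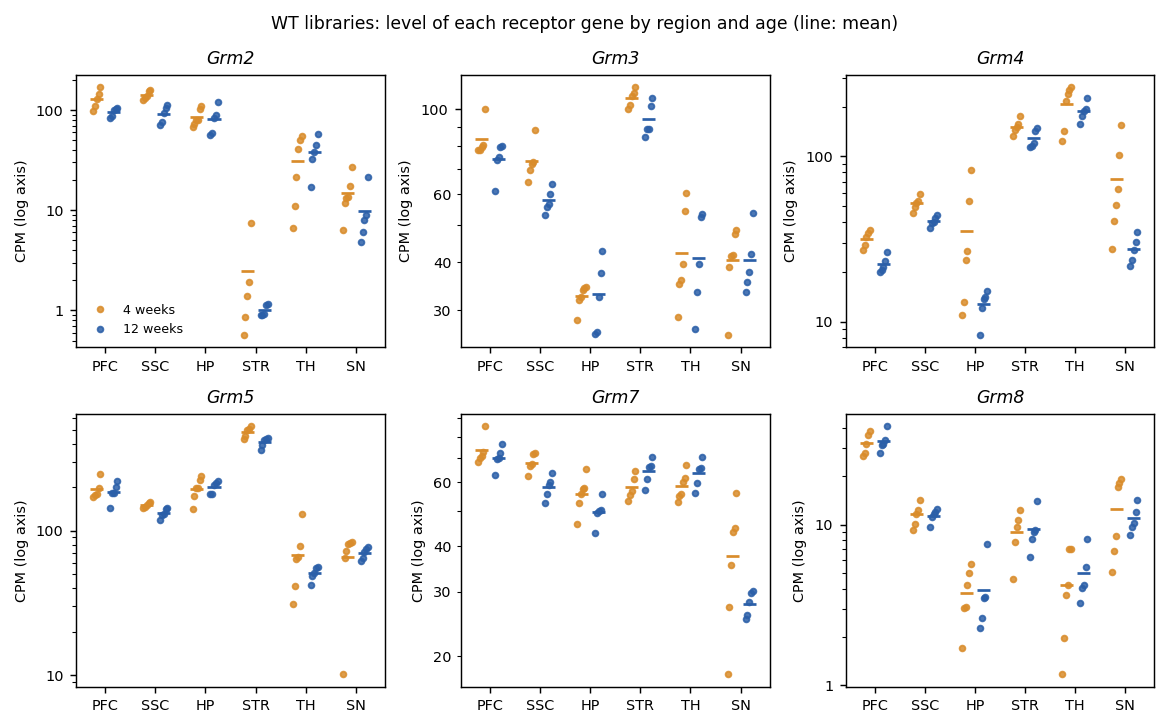
Each point is 1 WT library and each line a group mean, in CPM on a logarithmic axis, by region at 4 weeks (orange) and 12 weeks (blue); each panel has its own axis range. Grm5 and Grm3 were highest in the striatum, where Grm2 was lowest, Grm4 was highest in the thalamus, and Grm8 in the prefrontal cortex.

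Grm5 was a gene of the striatum in these samples. At 12 weeks the 5 WT striatal libraries held 364, 395, 422, 429 and 436 CPM, against 42.3, 48.9, 51.0, 55.3 and 56.5 CPM in the thalamus, where it was lowest. The groups were far from overlapping, and over every age and genotype the 30 striatal libraries, at 281.7 to 593 CPM, lay above all 156 others, the highest of which held 249.6 CPM. In order, the 12-week means were 409 ± 29.7 CPM in the striatum, 200.5 ± 18.7 in the hippocampus, 187 ± 28.7 in the prefrontal cortex, 132 ± 9.99 in the somatosensory cortex, 69.8 ± 6.67 in the substantia nigra and 50.8 ± 5.69 in the thalamus (SD, n = 5 each). The step from hippocampus to striatum was 1.04 ± 0.09 on the log2 scale (SE, adjusted p = 8.22e-11). Hippocampus and prefrontal cortex were the only neighbours in that order that did not pass the test (adjusted p = 0.352). At 4 weeks the order began in the same way, with 484 ± 39.8 CPM in the striatum, and the step to the hippocampus passed again (1.34 in log2, adjusted p = 0.000772).

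Grm2, a group II receptor gene known for presynaptic neurons of cortex and hippocampus, was close to absent in the striatum. The 12-week WT striatal libraries held 0.903, 0.905, 0.912, 1.14 and 1.16 CPM, while those of the prefrontal cortex held 83.9, 86.4, 101, 101 and 105 CPM. That is a ratio of 93.7 in the fitted comparison, and the libraries of the other 4 regions lay between these groups or beside the cortex. The 12-week means were 95.6 ± 9.77 CPM in the prefrontal cortex, 91.0 ± 17.9 in the somatosensory cortex and 81.7 ± 25.6 in the hippocampus, and no pair of these neighbours passed the test. The thalamus followed with 38.0 ± 14.9 CPM (1.09 below the hippocampus in log2, adjusted p = 0.00126), then the substantia nigra with 9.79 ± 6.59 CPM (1.94 lower, adjusted p = 2.21e-06), and last the striatum with 1.01 ± 0.135 CPM (3.29 ± 0.40 lower, adjusted p = 1.67e-08). Over all ages and genotypes, 26 of 30 striatal libraries lay below every library of another region, and the other 4 were those with raised cortical markers.

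Grm3, the second group II gene, had a different regional pattern from Grm2: it was highest in the striatum and lowest in the hippocampus. At 12 weeks the WT striatal libraries held 84.7, 88.6, 88.8, 102 and 107 CPM, a mean of 94.2 ± 9.66, and the prefrontal cortex followed with 74.0 ± 7.61 CPM (0.36 lower in log2, adjusted p = 0.0411). That call was lost without any 1 of prefrontal libraries 2, 3 and 4 and striatal libraries 1, 2 and 4 (adjusted p 0.0528 to 0.127) and without the filter on low counts (adjusted p = 0.0507). The somatosensory cortex had 57.9 ± 4.14 CPM, which was not separated from the prefrontal cortex (adjusted p = 0.0578) but lay above the thalamus (0.47 in log2, adjusted p = 0.00865). Thalamus, substantia nigra and hippocampus, at 41.1 ± 11.6, 40.5 ± 7.97 and 33.1 ± 7.25 CPM, were not told apart as neighbours. The striatal mean was highest and the hippocampal mean low at 4 weeks too, with 107 ± 5.76 and 32.6 ± 2.35 CPM.

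Grm4, a group III gene, was highest in the thalamus and second in the striatum. The 12-week WT thalamic libraries held 156, 175, 189, 192 and 227 CPM, and the hippocampal libraries, the lowest, held 8.30, 12.1, 13.7, 14.1 and 15.4 CPM. In the 12-week means, 188 ± 26.1 CPM in the thalamus and 128 ± 16.1 in the striatum (0.56 lower in log2, adjusted p = 0.000341) stood above 40.6 ± 2.71 in the somatosensory cortex, which was 1.68 below the striatum (adjusted p = 4.34e-12). The substantia nigra had 27.6 ± 5.29 CPM, the prefrontal cortex 22.4 ± 2.60 and the hippocampus 12.7 ± 2.74, and Grm4 was the only one of the 6 genes with all 15 pairs of regions past the test at 12 weeks. Of these, the pair of substantia nigra and prefrontal cortex lost its call without any 1 of prefrontal libraries 3, 4 and 5 and nigral libraries 1 and 4 (adjusted p 0.0535 to 0.123). At 4 weeks 10 of 15 passed, and the thalamus, at 206 ± 59.4 CPM, was not separated from the striatum at 152 ± 15.8 CPM (adjusted p = 0.362). These 2 means include WT libraries that stood apart, and the pair stayed uncalled in 7 of 7 other settings. Without the libraries that stood apart, the substantia nigra lost its calls against hippocampus and prefrontal cortex (adjusted p = 0.406 and 0.229). Its call against the striatum was lost without the 4-week libraries that hold few whole-number values (adjusted p = 0.124). In all, 27 of 31 thalamic libraries lay above every library of another region.

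Grm7, which encodes a receptor of the presynaptic active zone with low affinity for glutamate, was the most evenly spread and was lowest in the substantia nigra. At 12 weeks the WT libraries of the substantia nigra held 25.3, 26.0, 28.2, 29.8 and 30.1 CPM. Their mean of 27.9 ± 2.19 CPM lay 0.81 below the hippocampus in log2 (49.7 ± 4.32 CPM, adjusted p = 5.52e-11). The 4 regions above were close together, with 70.1 ± 4.94 CPM in the prefrontal cortex, 64.2 ± 5.18 in the striatum, 63.4 ± 5.59 in the thalamus and 58.2 ± 4.08 in the somatosensory cortex, and none of those neighbours was separated. The hippocampus passed as lower than each of these 4, by 0.22 (somatosensory cortex, adjusted p = 0.0121) to 0.49 (prefrontal cortex, adjusted p = 1.25e-06) in log2. Prefrontal and somatosensory cortex also differed as a pair (0.28, adjusted p = 0.00248). At 4 weeks the hippocampus was not separated from any of these 4 regions (adjusted p 0.0547 to 0.695). The smallest of those, against the prefrontal cortex, stayed above the threshold in only 2 of 7 other settings. The 2 cortical areas were not separated at 4 weeks either (0.10, adjusted p = 0.780), while the substantia nigra again lay below the hippocampus (by 0.58, adjusted p = 0.00233). Over all ages and genotypes, 28 of 32 nigral libraries lay below every library of another region.

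Grm8, the third group III gene, was highest in the prefrontal cortex. The 12-week WT libraries of the prefrontal cortex held 27.8, 31.3, 31.6, 33.4 and 40.8 CPM, a mean of 33.0 ± 4.82, and the somatosensory cortex followed with 11.4 ± 1.10 CPM (1.54 lower in log2, adjusted p = 6.02e-06). Substantia nigra (10.9 ± 2.20 CPM) and striatum (9.34 ± 2.89 CPM) were not separated from it or from each other as neighbours. Thalamus and hippocampus were lowest, with 5.02 ± 1.93 and 3.90 ± 2.09 CPM, and the step from striatum to thalamus passed (0.89 in log2, adjusted p = 0.00223). In all, 27 of 31 libraries of the prefrontal cortex lay above every library of another region.

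For 5 of the 6 genes the leading region was the same in every age and genotype. In the 6 combinations of age and genotype, Grm3 and Grm5 had their highest mean in the striatum, Grm4 in the thalamus, and Grm7 and Grm8 in the prefrontal cortex, 6 times of 6 each; Grm2 was lowest in the striatum and Grm7 in the substantia nigra 6 times of 6. Grm2 was highest in the somatosensory cortex in the 3 genotypes at 4 weeks and in the prefrontal cortex in the 3 at 12 weeks. These 6 combinations are different libraries of the same brain regions.

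To compare the genes with each other, each level was divided by the length of the gene's longest annotated transcript, from 3049 bases for Grm3 to 8047 for Grm5, and given as its share of the sum of the 6. On this scale of CPM per kilobase, with shares of group means that carry no error of their own, the striatum was a mixture of Grm5 (40.0% at 12 weeks in WT), Grm3 (24.3%), Grm4 (21.9%) and Grm7 (12.0%), with 0.17% of Grm2. The thalamus was mostly Grm4 (48.1%), and group III genes together made up 67.1% there. In the somatosensory cortex Grm2 (24.2%) and Grm3 (23.8%) were the leading pair, and group II made up 48.0% there, 46.4% in the prefrontal cortex and 41.2% in the hippocampus. The hippocampus was led by Grm5 with 36.4%, and the substantia nigra by Grm3 with 34.1%. The 4-week mixtures had the same leading gene in the striatum (Grm5, 41.7%), the thalamus (Grm4, 50.6%), the hippocampus (Grm5, 32.4%) and the somatosensory cortex (Grm2, 29.2%). The prefrontal cortex was led by Grm2 at 4 weeks (25.1%, with Grm3 at 24.8%) and by Grm3 at 12 weeks (25.2%, with Grm2 at 21.1%), and the substantia nigra by Grm4 at 4 weeks (30.6%, with libraries of raised thalamic score among them). With the length of all exons of a gene in place of the longest transcript, Grm3 led in the 4-week substantia nigra (31.2%, with Grm4 at 28.7%), the 4-week prefrontal cortex (29.1%) and the 12-week somatosensory cortex (27.8%), and the other leading genes stayed as given.

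**Figure D2:**
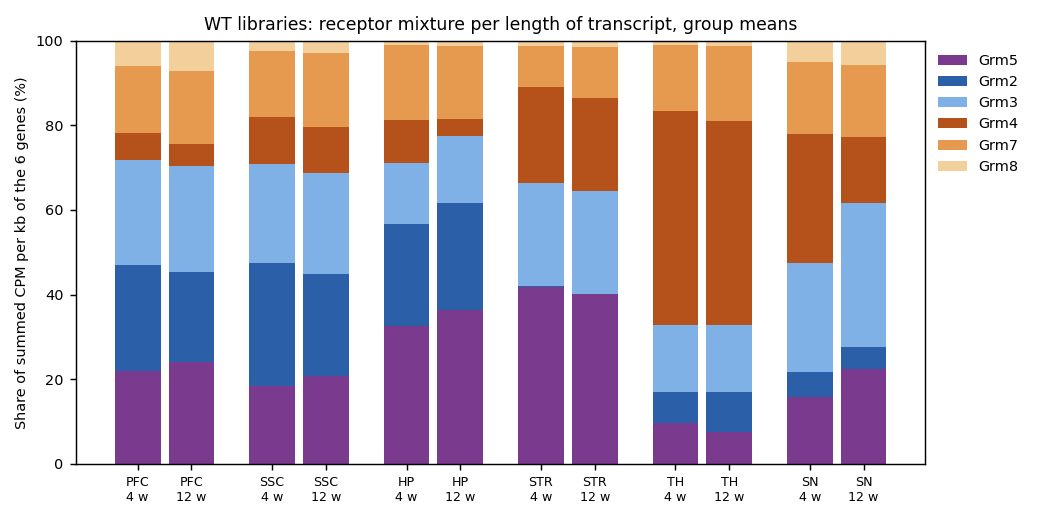
Stacked bars give each gene's share of the summed CPM per kilobase of the 6 genes, in percent, for the WT group means of each region at 4 and 12 weeks. Grm5 fills 40.0% of the 12-week striatal bar, Grm4 48.1% of the thalamic one, and Grm2 is hardly visible in the striatum.

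The study's main comparison asks what loss of Akap11 changes in each region. Of 72 tests of these receptors in KO against WT (6 genes, 6 regions, 2 ages), 1 passed an adjusted p of 0.05 with edgeR's quasi-likelihood test. Over all genes 0.644% of such tests passed. In the striatum 1 of 12 passed, where 3.89% of all genes' tests did. That 1 was Grm4 in the striatum at 12 weeks. At an unadjusted p under 0.05 there were 12 of 72, against 8.73% of all tests, and DESeq2 called 2 (13 at an unadjusted p under 0.05). The log2 fold changes were below 0 in 45 of 72, their median was −0.04 and the median of their sizes 0.12. In 2 of the 72 comparisons the KO and WT libraries did not overlap, against 1.53% of all tests.

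**Figure D3:**
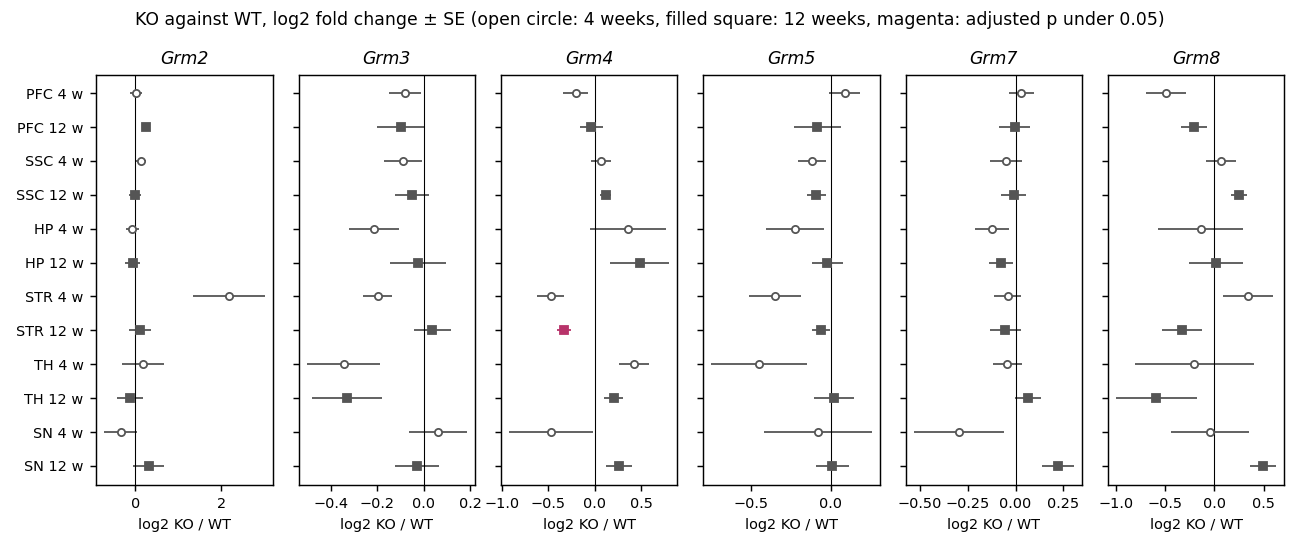
Points give the log2 fold change of KO against WT with its standard error for each gene, region and age (open circles 4 weeks, filled squares 12 weeks), with an axis of its own in each panel. The magenta square, Grm4 in the 12-week striatum at −0.33, is the only one past an adjusted p of 0.05; Grm2 in the 4-week striatum, at 2.18 ± 0.83, lies farthest to the right.

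In the 12-week striatum Grm4 was lower in KO than in both other genotypes. The KO libraries held 98.2, 101.5, 103.4, 104.7 and 105.4 CPM. The WT libraries held 114.7, 115.7, 120.3, 142.7 and 148.8 CPM, and the HET libraries 117.2, 124.2, 126.3, 133.4 and 143.8 CPM. Every KO library lay below every WT and HET library (such a gap between KO and WT was seen for 5.39% of all genes in this set, and between KO and HET for 5.78%), while WT and HET overlapped over most of their range. KO stood at 79.8% of WT (−0.33 ± 0.07 on the log2 scale, SE, adjusted p = 0.0165) and at 79.3% of HET (−0.33 ± 0.07, adjusted p = 0.0144); in this set 4.42% of all genes passed against WT, 2.6% with lower levels in KO. The call against WT held when each of the 15 libraries was left out in turn, with adjusted p between 0.0093 and 0.0459.

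Markers moved beside it. Of 8 striatal projection neuron markers, 2 were lower in KO in the same fit, Pde10a (−0.43, adjusted p = 0.0374), a cyclic nucleotide phosphodiesterase, and Rgs9 (−0.49, adjusted p = 0.00178), a regulator of G protein signalling. The summed level of the 8 ranged from 9592 to 12291 CPM in KO, 9694 to 13805 in WT and 10386 to 12684 in HET, so the groups overlapped. Of the cortical excitatory list, 1 of 4 tested genes, Lamp5, was higher (0.31, adjusted p = 0.0121), and the list's summed level was 210.4 to 244.6 CPM in KO against 186.8 to 202.7 CPM in WT, without overlap. The median log2 fold change of the 4 tested genes was −0.06, so the list did not rise as a whole. Of 8 thalamic markers 1 was higher, Adarb1 (0.19, adjusted p = 0.0385), with a median of −0.10 for the list. Of 8 interneuron markers 1 was higher, the peptide gene Sst (0.30, adjusted p = 0.00884), with a median of 0.13 for the list. With the cortical excitatory score as a covariate the Grm4 call against WT held. Over the 6 alternative settings, that one among them, the value was −0.33 to −0.32 (adjusted p at most 0.0326). The cortical score is a mean over its whole list and need not follow a shift of 1 gene. The part of any of these marker shifts in the Grm4 result was not tested.

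The other 5 receptor genes were not changed in the 12-week striatum by this test. Grm5, at −0.06 ± 0.06 (adjusted p = 0.684), Grm3, at 0.04 ± 0.08 (adjusted p = 0.901), and Grm7, at −0.05 ± 0.08 (adjusted p = 0.839), had small standard errors. Grm2, at 0.11 ± 0.26 (adjusted p = 0.911), and Grm8, at −0.33 ± 0.20 (adjusted p = 0.487), were measured less closely, and a change as large as that of Grm4 lay within their intervals.

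**Figure D4:**
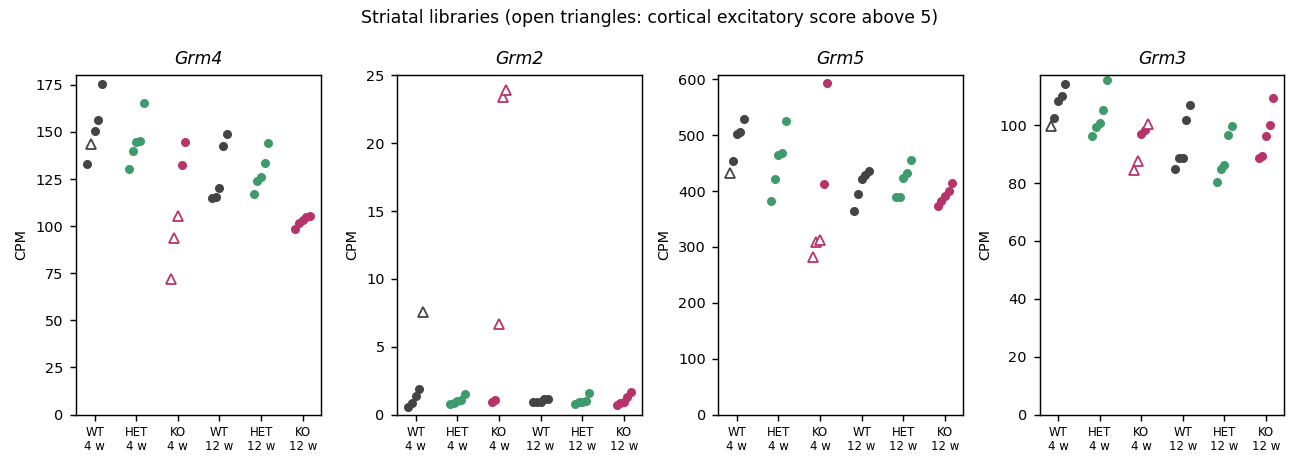
Each point is 1 striatal library, in CPM, by genotype and age, for Grm4, Grm2, Grm5 and Grm3; open triangles are the 4-week libraries with a cortical excitatory score above 5. In the 12-week Grm4 data all 5 KO points lie below the WT and HET points, and at 4 weeks the KO triangles are high for Grm2 and low for Grm4 and Grm5.

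At 4 weeks no receptor gene passed the test in the striatum, where 3.35% of all genes did, and the values turned on which KO libraries were read. Grm4 held 72.1, 93.7, 105.2, 132.7 and 144.9 CPM in KO, 132.9 to 175.3 CPM in WT and 130.1 to 165.5 CPM in HET (−0.47 ± 0.14 against WT, adjusted p = 0.0827, and 0.0355 with DESeq2). Grm2 held 0.893, 1.07, 6.66, 23.4 and 23.9 CPM in KO and 0.569, 0.862, 1.40, 1.90 and 7.54 CPM in WT (2.18 ± 0.83, adjusted p = 0.169). Grm5 held 282, 310, 312, 412 and 593 CPM in KO against 432 to 529 CPM in WT (−0.35 ± 0.17, adjusted p = 0.285).

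The 3 KO libraries high in Grm2 and low in Grm4 and Grm5, numbers 51, 161 and 163, were the same ones that held 842 to 1622 CPM of summed cortical excitatory markers, against 212 to 256 CPM in the other 2, and the WT library with 7.54 CPM of Grm2, number 92, was the WT library that stood apart in that score. Without those 4 libraries Grm4 was at −0.16 (adjusted p = 0.454), Grm5 at −0.0013 (adjusted p = 0.998) and Grm2 at −0.29 (adjusted p = 0.776). Without KO library 12 instead, Grm4 (−0.59, adjusted p = 0.0172) and Grm5 (−0.56, adjusted p = 0.0105) passed, and without WT library 92 alone Grm2 did (3.24, adjusted p = 0.0412). Grm3 was 84.5, 87.6, 96.9, 98.2 and 100.3 CPM in KO and 99.9, 103, 108, 109.9 and 114 CPM in WT, ranges that met only at their ends (−0.20 ± 0.06, adjusted p = 0.103), and was at −0.17 (adjusted p = 0.259) without the 4 libraries.

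Set against HET, KO was different for 2 of 12 tests in the striatum, where 4.34% of all genes' tests passed. Beside Grm4 at 12 weeks, the second was Grm2 at 4 weeks (3.44 ± 0.89, adjusted p = 0.0436), which was −0.09 (adjusted p = 0.942) without the libraries that stood apart and lost its call without any 1 of 11 of the 15 libraries (adjusted p 0.0518 to 0.114).

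Outside the striatum 0 of 60 KO tests passed (0.018% of all genes' tests did), and DESeq2 also called 0. The smallest unadjusted p-values there were those of Grm8. In the 12-week substantia nigra its KO libraries held 12.3, 14.8, 15.8, 16.3 and 18.3 CPM and its WT libraries 8.57, 9.65, 10.2, 11.9 and 14.2 CPM, with an overlap of 1 library from each group (0.50 ± 0.13, unadjusted p = 0.00144, adjusted p = 0.649). In the 12-week somatosensory cortex Grm8 was 12.7 to 14.8 CPM in KO and 9.61 to 12.5 CPM in WT, with no overlap (0.25, unadjusted p = 0.0086, adjusted p = 1.00). Grm8 was in the other direction in the 4-week prefrontal cortex (−0.49, adjusted p = 0.284).

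In the thalamus Grm3 was below WT in KO at both ages (−0.35 at 4 weeks, adjusted p = 0.349, and −0.33 at 12 weeks, adjusted p = 0.648) and Grm4 above (0.43 ± 0.16 at 4 weeks, adjusted p = 0.290, and 0.20 at 12 weeks, adjusted p = 0.661), none of which passed. The 4-week values include the 3 WT libraries that stood apart, without which Grm3 was at −0.14 and Grm4 at 0.15. In the 4-week substantia nigra no gene had an unadjusted p under 0.05 with all libraries, and without the 4 that stood apart Grm7 was at −0.57 ± 0.17 (unadjusted p = 0.00487, adjusted p = 0.451) and Grm2 at −1.02 ± 0.45 (unadjusted p = 0.0424, adjusted p = 0.517). In the 4-week hippocampus Grm4 was 37.0 to 52.3 CPM in KO and 13.5 to 34.9 CPM in HET without overlap, but the WT libraries spanned 11.1 to 83.1 CPM and the test against HET did not pass (0.72 ± 0.43, adjusted p = 0.379). The thalamic neuron score there was 6.18 to 7.13 in KO, 4.69 to 6.04 in HET and 4.48 to 7.44 in WT. With that score as a covariate, 0 receptor genes passed in KO against WT there. The value of Grm4 against HET with that covariate is not reported here.

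HET differed from WT in 0 of 72 tests with edgeR's quasi-likelihood test, where 0.00521% of all genes' tests passed. At an unadjusted p under 0.05 there were 5 of 72 (5.39% of all tests), and DESeq2 called 1, Grm4 in the 4-week thalamus (0.50, adjusted p = 0.0375; 0.48 and adjusted p = 0.217 with edgeR). In the 4-week substantia nigra Grm4 was at −1.17 and Grm2 at −1.05, with an adjusted p of 0.548 each, and the WT group there held 2 libraries of low dopamine and high thalamic score. Without the libraries that stood apart those values were −0.45 and −1.10, and that of Grm4 in the thalamus was 0.20 (adjusted p = 0.894).

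Whether the KO effect differed between ages or regions was tested directly. Between 12 and 4 weeks, 0 of 36 tests of the difference passed (0.0% of all genes' tests), with 2 of 36 at an unadjusted p under 0.05 against 5.21% of all tests, and DESeq2 called 0. For Grm4 in the striatum the effect was called at 12 weeks and not at 4, but that difference between ages did not pass. When the striatum was set against the average of the 5 remaining regions, 1 of 12 tests passed, that of Grm2 at 4 weeks (2.18 ± 0.52, adjusted p = 0.00702, where 3.52% of all genes passed at 4 weeks and 3.11% at 12), and it was −0.02 (adjusted p = 1.00) without the libraries that stood apart, and 1.70 and 1.73 without KO library 161 or 51 alone (adjusted p = 0.102 and 0.0715). The same difference for Grm4 at 12 weeks was −0.54 ± 0.19 and did not pass (adjusted p = 0.115).

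More tests passed between ages than between genotypes. From 4 to 12 weeks in WT, 8 of 36 tests passed and all 8 were decreases, where 20.6% of all genes' tests passed and 11.4% passed as decreases; 25 of 36 values were below 0, 13 of 36 had an unadjusted p under 0.05, and 5 had no overlap (11.8% of all tests). By region, the share of all genes that passed was 27.1% in the somatosensory cortex, 22.6% in the thalamus, 19.1% in the prefrontal cortex, 18.6% in the substantia nigra, 18.5% in the striatum and 17.7% in the hippocampus. The labels give each age its own libraries, so age and any batch of collection cannot be told apart.

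The somatosensory cortex held 4 of the 8. There Grm2 fell from 126, 133, 137, 154 and 158 CPM at 4 weeks to 70.3, 75.6, 92.9, 104 and 112 CPM at 12 weeks with no overlap (−0.64 ± 0.13, adjusted p = 0.00046). Grm3 fell from 64.5, 69.5, 71.8, 72.9 and 88.0 CPM to 53.2, 55.8, 56.6, 59.98 and 63.9 CPM, and Grm4 from 45.7, 49.4, 52.5, 54.0 and 59.5 CPM to 36.9, 39.8, 39.9, 42.4 and 43.9 CPM, both without overlap (−0.34 ± 0.08, adjusted p = 0.00206, and −0.36 ± 0.09, adjusted p = 0.00378). Grm7 fell by 0.22 (adjusted p = 0.0281), a call that was lost without either of 12-week libraries 2 and 4 or 4-week libraries 142 and 23 (adjusted p 0.0619 to 0.0892). Grm5 was at −0.19 with no overlap but did not pass (adjusted p = 0.0654), and Grm8 was at −0.03. Markers shifted in this region too. Of 8 oligodendrocyte markers 8 were lower at 12 weeks, with scores of 7.59 to 8.14 and then 6.94 to 7.08. Of 8 cortical excitatory markers 3 were lower and 1 was higher. The part of these shifts in the receptor values was not tested.

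In the prefrontal cortex Grm2 and Grm4 fell as well. Grm2 went from 98.4, 109, 128, 145 and 169.9 CPM to 83.9, 86.4, 101, 101 and 105 CPM with overlap (−0.43 ± 0.13, adjusted p = 0.0171), a call lost without the 4-week library 914 (−0.32, adjusted p = 0.0668). Grm4 went from 27.0, 29.1, 32.4, 34.2 and 35.97 CPM to 20.1, 20.6, 21.4, 23.4 and 26.4 CPM without overlap (−0.49 ± 0.13, adjusted p = 0.0101). Here 3 of 8 cortical excitatory markers were lower at 12 weeks and 1 was higher, and 2 of 8 oligodendrocyte markers were lower. The part of these shifts was not tested.

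The 2 largest decreases were those of Grm4 in the hippocampus and the substantia nigra, and thalamic markers fell in both. In the hippocampus Grm4 was 11.1 to 83.1 CPM at 4 weeks, with a median of 25.3, and 8.30 to 15.4 CPM at 12 weeks (−1.48 ± 0.40, adjusted p = 0.0103). In the substantia nigra it was 27.5 to 155 CPM with a median of 57.2, and then 21.9, 23.8, 27.1, 30.3 and 35.1 CPM (−1.40 ± 0.36, adjusted p = 0.00788). Both pairs of groups overlapped at their ends, and the spread lay on the 4-week side.

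Beside these values, 7 of 8 thalamic markers were lower at 12 weeks in the hippocampus, where the thalamic score ran from 4.48 to 7.44 at 4 weeks and from 4.32 to 5.40 at 12 weeks. In the substantia nigra 3 of 8 were lower, with scores of 5.67 to 8.25 and then 5.65 to 5.96, and 5 of 8 dopamine neuron markers were higher, with scores of 2.70 to 7.22 and then 7.43 to 7.86. With the thalamic score as a covariate Grm4 changed by −0.26 in the hippocampus (adjusted p = 0.496) and by −0.48 in the substantia nigra (adjusted p = 0.204). Without the 3 hippocampal libraries with a thalamic score above 7, the hippocampal value was −0.56 (adjusted p = 0.305), and without the WT library 23 alone it was −1.03 (adjusted p = 0.0536). Without the 4 nigral libraries that stood apart, the nigral value was −0.71 ± 0.22 (adjusted p = 0.0268). In WT the highest thalamic scores of both regions lay at 4 weeks, so score and age cannot be fully told apart. The cause of these Grm4 changes was not tested.

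With the libraries that stood apart left out, 4 further decreases passed the test between ages: Grm4 (−0.24, adjusted p = 0.0373) and Grm5 (−0.27, adjusted p = 0.0415) in the striatum, Grm4 in the thalamus (−0.40, adjusted p = 0.0131) and Grm7 in the substantia nigra (−0.43, adjusted p = 0.0150). With all libraries their values were −0.22, −0.22, −0.12 and −0.42 and did not pass. In group means Grm4 was lower at 12 weeks in all 3 genotypes in all 6 regions.

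**Figure D5:**
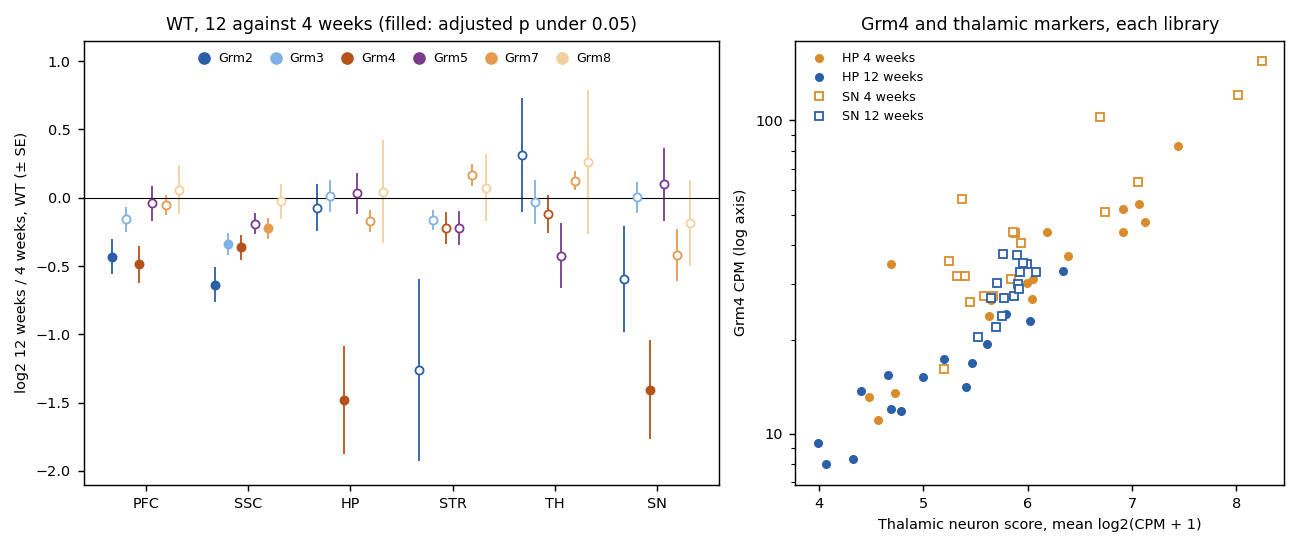
The left panel gives the log2 change from 4 to 12 weeks in WT with its standard error, filled where the adjusted p is under 0.05; the right panel gives Grm4 in CPM (log axis) against the thalamic neuron score (mean log2(CPM + 1)) for each hippocampal and nigral library of every genotype. The lowest filled points, Grm4 at −1.48 in HP and −1.40 in SN, belong to the 2 regions drawn in the right panel, whose libraries spread along the thalamic score. The cause of these changes was not tested.

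The wider receptor pathway was read in 5 lists of genes, of which every gene found in the table was tested: Gq transducers of group I, scaffolds and partners, Gi transducers of groups II and III, receptor kinases and RGS proteins, and genes that handle glutamate and the group II agonist NAAG. In the other 5 regions 0 genes of any list passed in KO against WT, in 120, 140, 160, 110 and 130 tests. Over all genes 0.018% of tests passed in those regions, so few calls were to be had there for any list. The genes that passed did so in the striatum. In the striatum 3.35% of all genes passed at 4 weeks and 4.42% at 12 weeks, and the counts of list genes below stand beside those shares. The 5 lists' median log2 fold changes lay between −0.10 and 0.09 at either age, against −0.00 and 0.01 for all genes.

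In the group I branch, 1 of 12 Gq transducers was lower at 4 weeks, Plcb3, a phospholipase C (−0.40, adjusted p = 0.0398). Of 14 scaffolds and partners, 4 passed at 4 weeks. Homer1, which ties group I receptors to the postsynaptic density, was lower (189 ± 47.4 CPM in KO and 315 ± 49.2 in WT, −0.74, adjusted p = 0.0126), as was its partner Shank3 (−0.64, adjusted p = 0.0405), and Elfn1, an adhesion protein that binds group III receptors across the synapse, and Grip1 were higher (0.50, adjusted p = 0.0448, and 0.27, adjusted p = 0.0294). At 12 weeks 1 of 14 passed, Cabp1, which was lower (−0.46, adjusted p = 0.0115).

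In the branch of groups II and III the cyclase gene Adcy1 was higher at both ages, with 554 ± 69.5 CPM in KO and 317 ± 75.6 in WT at 4 weeks (0.80 ± 0.14, adjusted p = 0.00541) and 393 ± 19.6 and 254 ± 49.7 CPM at 12 weeks (0.63 ± 0.10, adjusted p = 0.00164). It was the only one of 16 at 4 weeks. At 12 weeks Kcnj9, a subunit of the potassium channels that these receptors open through G proteins, was higher too (0.29, adjusted p = 0.0438).

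Of 11 receptor kinases, arrestins and RGS proteins, 0 passed at 4 weeks and 3 at 12 weeks. Rgs4, a brake on Gi and Gq signals, was at 811 ± 97.5 CPM in KO and 1465 ± 290.3 in WT (−0.86, adjusted p = 0.00109). Rgs2 was higher, at 320 ± 50.7 and 198 ± 37.0 CPM (0.69, adjusted p = 0.0121), and Arrb1, an arrestin, was higher by 0.27 (adjusted p = 0.0310). Of 13 genes that handle glutamate and NAAG, 0 passed at either age.

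The 4-week list values share the 4 striatal libraries that stood apart. In the fit of KO against WT that leaves these out, 417 of all 15750 genes tested passed. Without those 4 libraries Plcb3 (−0.64, adjusted p = 0.00624) and Adcy1 (0.82, adjusted p = 0.0110) passed again, and 0 of 14 scaffolds and partners did: Homer1 was at −0.43 (adjusted p = 0.180), Shank3 at −0.40 (adjusted p = 0.288), Elfn1 at 0.30 (adjusted p = 0.205) and Grip1 at 0.25 (adjusted p = 0.130). Calls were gained for Kcnj9 (0.40, adjusted p = 0.0279), so that 2 of 16 Gi transducers passed, and for Slc17a8, a vesicular glutamate transporter (0.67, adjusted p = 0.0372), so that 1 of 12 tested genes for glutamate and NAAG did.

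The genes whose levels were most like each receptor's were found by Pearson's r of log2 levels over the 36 group means, among 11620 genes. The points are regions, ages and genotypes whose libraries share their normalisation, and differences between regions make up most of their spread. Grm2 was closest to Olfm1 (0.99), Mfsd4 (0.98) and Lrp8 (0.98), and Grm5 to Actn1 (0.981), Ankrd63 (0.978) and Ryr1 (0.978). Grm4 was closest to Gdpd5 (0.963) and Pcp4 (0.961), and Grm3 to Lrrtm3 (0.962), Pde4b (0.949) and Fcho1 (0.949). Grm7 was closest to Kcnf1 (0.964), Hook1 (0.958) and Pcsk2 (0.958), and Grm8 to Dok5 (0.973), Cyb561 (0.946) and Mboat7 (0.945). Among the receptor genes themselves the highest values were 0.699 for Grm3 with Grm5 and 0.637 for Grm3 with Grm8, and the lowest was −0.465 for Grm2 with Grm4.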

How the data were processed

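The deposited table, per its header and values, holds estimated (expected) counts for each gene symbol and library, and the submitters' processing notes name Salmon and the mm10 build; versions, the annotation and any use of strand are not stated in any source used here. Per the labels' protocols, libraries were made from 200 ng of RNA with a stranded mRNA kit. The expected counts deposited by the authors were rounded to whole numbers. Groups came from the labels.

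Tests used edgeR 4.0.16 (R 4.3.3, limma 3.58.1): TMM factors, edgeR's filter on low counts by group, a quasi-likelihood fit, and Benjamini-Hochberg adjustment over all genes of each comparison, with a call at an adjusted p under 0.05. SE is the log2 fold change divided by the square root of F, and intervals are 1.96 SE wide on each side. Genotypes were compared within region and age, ages within region, and regions among WT libraries. DESeq2 1.42.0, other scaling factors, no filter, covariates, a replicate block and omission of libraries were the alternatives. CPM levels share 1 TMM scale over 186 libraries, marker scores are a mean of log2(CPM + 1), and per-length levels use GENCODE M21 transcripts. The table holds 28338 gene symbols, of which 2991 were 0 in every library.

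The 6 genes, the marker lists and the pathway lists were chosen with earlier results of these data known, and give no independent support. From each pathway list, genes past the test in KO against WT in the striatum were named, at most 5 for each list, and from the likeness measure the 3 closest genes of each receptor, of which some items are not reported here. On counts simulated with known changes, the fit of KO against WT in the 12-week striatum recovered 83.0% of 2-fold and 94.9% of 4-fold changes, with 7 false calls in 184, over 15468 genes. Changes smaller than 2-fold, such as the −0.33 in log2 of Grm4, were not simulated, so their rate of recovery is not known. Totals were at least 20.8 M counts. Shared replicate numbers were not used as a block in the reported fits, since the labels do not say what they share and same-numbered libraries did not all correlate above 0.1.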

Additional observations from a re-analysis of the deposited data

Results flagged for a closer look

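In 14 of 216 groups tested (6 genes in 36 groups), the highest or lowest library lay apart from the others of its group by Dixon's criterion at the 95% level, which chance meets in about 1 group in 20. Of the 14, 9 were at 4 weeks. For Grm2, HET library 162 of the 4-week hippocampus was high at 127 CPM (the others 83.6 to 90.1), WT library 4 of the 12-week substantia nigra at 21.2 CPM (4.84 to 8.93), HET library 5 of the 12-week striatum at 1.61 CPM (0.771 to 0.988) and WT library 92 of the 4-week striatum at 7.54 CPM (0.569 to 1.90). The last had a cortical excitatory score of 5.28.

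For Grm3, WT library 914 of the 4-week prefrontal cortex was high at 100.3 CPM (78.3 to 80.4), and 2 HET libraries numbered 2 at 12 weeks were low, at 53.1 CPM in the prefrontal cortex (69.1 to 75.7) and 33.4 CPM in the substantia nigra (37.6 to 39.3). Grm5 was low at 10.2 CPM in WT library 92 of the 4-week substantia nigra (65.4 to 83.4), whose dopamine neuron score was 4.28.

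For Grm7, HET library 93 of the 4-week prefrontal cortex was low at 64.6 CPM (74.1 to 78.5). High values were 85.4 CPM in WT library 914 of the 4-week prefrontal cortex (68.1 to 72.6), 47.6 CPM in KO library 91 of the 4-week substantia nigra (23.6 to 29.0) and 80.0 CPM in KO library 12 of the 4-week somatosensory cortex (60.1 to 64.1). Library 914 was thus high for both Grm3 and Grm7. For Grm8, WT library 5 of the 12-week hippocampus held 7.52 CPM (2.28 to 3.57) and KO library 163 of the 4-week thalamus 9.61 CPM (1.31 to 3.48).

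A test of the difference itself separated the KO effect on Grm2 in the 4-week striatum from the mean of the other 5 regions (2.18 on the log2 scale). It was −0.02 without the libraries that stood apart.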

How the results depend on the processing

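Beside leave-one-out, 49 single results were recomputed in 285 other settings: 256 kept direction and side of the threshold, 7 lost and 16 gained a call, and 6 reversed. All 6 reversals came from leaving out the libraries that stood apart: in the striatum Grm2 in KO against WT (−0.29), Grm2 (−0.088) and Grm5 (0.15) in KO against HET at 4 weeks, Grm2 against the other regions (−0.018), and the difference of the KO effect between ages for Grm2 (0.40) and Grm5 (−0.070). The settings based on a subset of libraries or on the thalamic score were chosen after seeing the data. Of the counts of calls, KO against WT in the striatum (1) was 2 with DESeq2 and 4 among libraries outside a subset of 16 4-week libraries with few whole-number values, which leaves 4 KO libraries at 4 weeks, 3 of them with raised cortical scores. HET against WT (0) was 1 with DESeq2. KO against HET in the striatum (2) was 1 with the cortical score as covariate, 1 with only those 2 genotypes, 1 without the libraries that stood apart and 4 outside the subset. The KO effect between ages (0) was 2 outside the subset, and that in the striatum against other regions (1) was 0 without the libraries that stood apart; the cause was not tested. The count between ages (8) was between 6, with the thalamic score as covariate, and 12, without the libraries that stood apart, and that of region pairs (133) between 132 and 141, with 124 of the 133 called in every setting. Leaving out 1 library at a time, KO against WT gave 1 to 3 calls in the striatum and 0 to 0 elsewhere, HET against WT 0 to 0, KO against HET 1 to 4, age 7 to 9, the striatum against other regions 0 to 1 and region pairs 131 to 138. With the replicate number as a block there were 1, 0, 0 and 2 calls in the same order and 136 region pairs; same-numbered libraries of 2 genotypes at 12 weeks correlated above 0.1 in 58 of 90 pairs (−0.34 to 0.72), in all 5 pairs for KO and WT in the hippocampus and KO and HET in the prefrontal cortex, where the block gave 0 calls too. In 87 of 180 cases a library correlated best with its own number among the 5 libraries of another genotype. That is more often than a random match among 5 would give, a hint of pairing from the data and not from the design. No paired analysis was possible for age because the 2 ages share no replicate numbers. Leave-one-out was not run for the KO effect between ages. Grm2 in the striatum and Grm8 in hippocampus and thalamus were the least abundant, and the median within-group SD of log2 levels was 0.33 for Grm8, 0.28 for Grm2 and 0.12 for Grm7.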
